A study of Pisaster ochraceus with 50 samples.

Results

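The 80 genes described here were those whose transcript levels had the most negative slopes on body size in both dermis and tube feet of the ochre sea star. They were chosen from 21777 genes of this species, Pisaster ochraceus. Levels are in CPM, the reads of a gene divided by all gene reads of its library and scaled to a common total. A slope is the linear fit of log2(CPM + 2) on size class, with small as 1, medium as 2, large as 3 and x-large as 4, so it is a log2 difference per class. Eligible were the 6371 genes averaging 10 CPM or more in dermis and also in tube feet, and from these the 80 whose less negative slope of the pair was lowest were taken. Dermis and tube feet values of the asymptomatic animals therefore selected the members, so their course over the size classes is given as a description without a test. The same asymptomatic libraries also serve as the reference group for the symptomatic animals. That contrast was tested, but in dermis and tube feet its reference values took part in the selection.

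The study sampled wild animals at Point Reyes. Of 17 animals, 15 came from McClures Beach and 2 from Lifeboat House, and 15 were asymptomatic while 2 showed wasting disease. The asymptomatic animals comprised 3 small, 3 medium, 5 large and 4 x-large stars, which in that order gave 3, 3, 5 and 3 libraries of dermis, 2, 3, 5 and 3 of tube feet and 3, 3, 5 and 4 of pyloric caecum. All 3 small animals were orange. The medium class held 1 orange and 2 brown animals, the large class 4 brown and 1 purple animal, and the x-large class 2 orange and 2 brown animals, so colour and size overlap in part. All small and medium animals were labelled as not feeding, and 2 animals, 1 large and 1 x-large, were feeding. The purple large animal came from Lifeboat House. The symptomatic animals were a large brown star from McClures Beach, labelled batch 2, and a medium orange star from Lifeboat House, labelled batch 5. The labels give size classes but no ages.

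The ochre star is a keystone predator of mussels on rocky shores of the northeastern Pacific. Its dermis is the body wall, a connective tissue stiffened by calcite ossicles and covered by an epidermis. Tube feet are the muscular, hydraulically driven podia that attach to rock and prey, and pyloric caeca are paired digestive glands in each arm that secrete enzymes and store nutrients. Sea stars keep growing after metamorphosis, and their body size follows food supply as well as age. The deposited files do not pair gene IDs with names, so the genes are given by ID, and no role can be stated for any of them.

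Depth was modest. Gene reads per library ran from 373930 to 1105416, so a single read stood for 0.905 to 2.67 CPM, and values of a few CPM rest on a few reads. The identity of the biopsies was checked with lists of 100 genes per tissue, those most enriched in that tissue over both others in these same libraries. In the asymptomatic animals, the dermis list held 2.48% to 8.20% of gene reads in dermis and at most 0.920% in tube feet, and the pyloric caecum list held 33.1% to 56.6% in pyloric caecum. The tube feet list held 7.83% to 12.5% of reads in 12 tube feet libraries but 2.28% in x-large library 1 (animal M0D055228P), which also held the highest dermis share of any tube feet library, 0.920%. This library stands apart from its tissue, and the tube feet summaries that move with it are given with and without it. The pyloric caecum list held 0.459% to 1.03% of reads in small dermis and 0.182% to 0.544% in larger dermis, and its part in the size pattern was not tested. None of the 80 genes was in the tube feet or the pyloric caecum list, and 2 (g15064 and g18733) were in the dermis list.

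As a group, the 80 genes stood highest in small animals, stepped down until the large class and then levelled off. The mean log2(CPM + 2) over the 80 genes was 6.34, 6.45 and 6.67 in the small dermis libraries and 5.25, 5.39 and 5.46 in the medium ones. Large dermis held 4.50, 4.62, 4.94, 5.25 and 5.28, and x-large dermis held 4.74, 4.84 and 4.87. The small libraries thus lay above all others, the medium libraries overlapped with the top of the large ones, and large and x-large overlapped fully. Over all eligible genes, the same mean ran from 5.29 to 5.44 in small dermis, 4.43 to 4.70 in medium, 3.95 to 5.59 in large and 4.91 to 5.50 in x-large dermis, so the eligible genes were also lower in medium than in small dermis, without overlap. The spread of this mean within a class was 0.244 in dermis (pooled SD over 14 libraries) and 0.299 in tube feet (over 13).

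Tube feet gave the same order from small to large. The 2 small libraries held 6.18 and 6.19, the medium ones 4.77, 5.30 and 5.43, and the large ones 4.06, 4.11, 4.21, 4.35 and 4.41, with no overlap between these 3 classes. X-large tube feet held 3.82, 4.43 and 4.78, and the highest of these was the library that stands apart. Over all eligible genes, the tube feet libraries ranged only from 5.32 to 5.63. Because these are bulk biopsies, fewer cells of a type and less RNA per cell cannot be told apart.

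**Figure D1:**
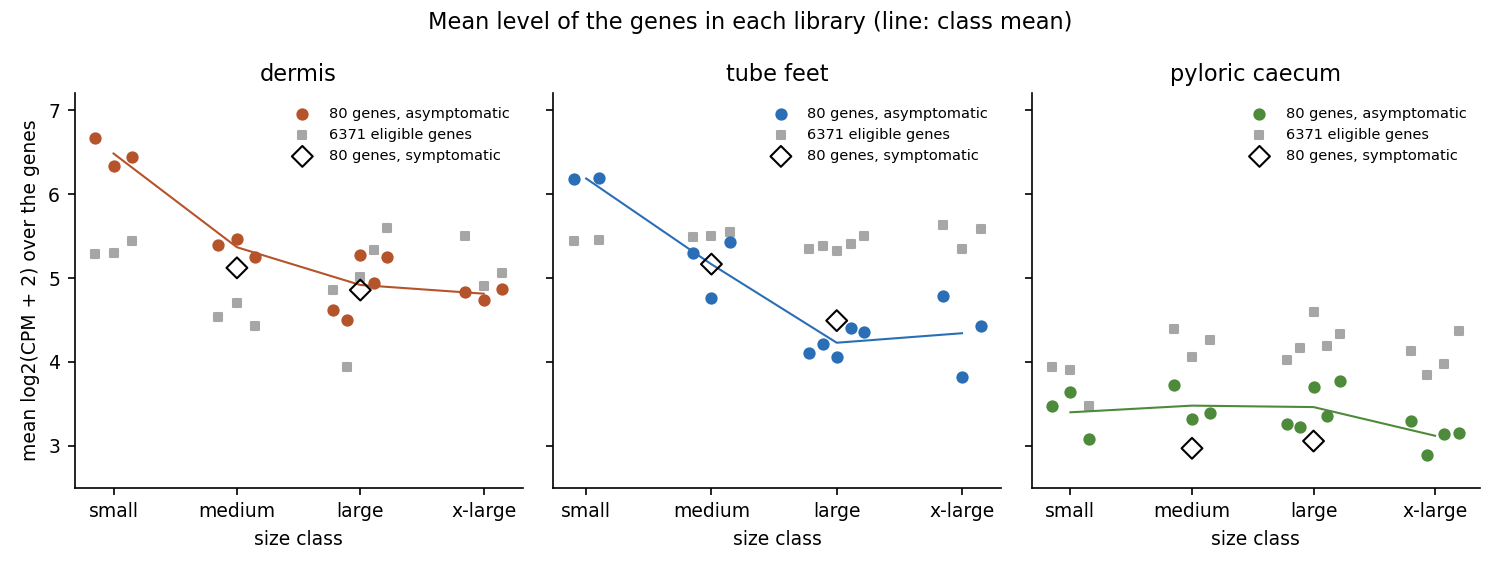
Mean log2(CPM + 2) over the 80 genes in each library (circles, asymptomatic animals; diamonds, the symptomatic medium and large animal) and over the 6371 eligible genes (grey squares), by size class, in dermis, tube feet and pyloric caecum. The line joins class means. Small dermis and tube feet libraries sit between 6.18 and 6.67, above every other library of their tissue, while the pyloric caecum libraries lie between 2.89 and 3.77, with the small ones amid the rest. In pyloric caecum the eligible genes are lower in small than in medium libraries, without overlap.

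As a share of all gene reads, the 80 genes took 2.07% to 2.33% in small dermis, 1.80% to 3.11% in medium, 0.675% to 1.54% in large and 0.521% to 1.24% in x-large dermis. In tube feet they took 1.21% and 1.42% in small animals, 0.489% to 1.37% in medium, 0.278% to 0.369% in large and 0.239% to 1.16% in x-large animals. The upper end of the last range was again the library that stands apart, and the other x-large libraries held 0.239% and 0.363%. The summed share is carried by a few abundant genes, so it differs from the gene average. In dermis, the medium share was as high as the small one although most genes were already lower.

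The median slope of the members was -0.48 in dermis (range -1.43 to -0.33) and -0.53 in tube feet (-1.61 to -0.33), against -0.01 and 0.02 over the eligible genes. The selection limit cut through a continuous range. The last genes inside were g6213, with slopes of -0.33 in dermis and -0.50 in tube feet, and g21125, with -0.42 and -0.33. The nearest outside were g4792, with -0.33 and -0.55, and g4109, with -0.37 and -0.33. For g6213 the small dermis libraries held 32.7, 42.6 and 47.5 CPM and the x-large ones 10.5, 46.0 and 24.4 CPM, so near the limit the classes overlapped in single genes.

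The shape over the classes was not a straight line. In CPM, the median difference of the 80 genes from small to medium was 1.11 on the log2(CPM + 2) scale in dermis, from medium to large 0.52, and from large to x-large 0.02. Over the eligible genes, the same dermis steps were 0.78, -0.37 and -0.20, so the typical gene also stood higher in small than in medium dermis. Trimmed-mean (TMM) scaling moved the dermis step of the eligible genes from 0.78 to 0.23. Relative to the eligible genes, the members' dermis steps were 0.33, 0.89 and 0.22 in CPM and 0.33, 0.89 and 0.17 after TMM scaling. Measured this way, the largest median step in dermis lay between medium and large, whereas in unadjusted CPM it lay between small and medium.

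In tube feet the scaling made little difference. Relative to the eligible genes, the members stepped down by a median of 0.82 from small to medium, 0.77 from medium to large and 0.13 from large to x-large in CPM, and by 0.82, 0.77 and 0.13 after TMM scaling. The difference was thus spread evenly over the lower steps of body size and was small at the top. Without the x-large library that stands apart, the median step from large to x-large was 0.11 in place of 0.02 in CPM, and the median tube feet slope was -0.63 in place of -0.53. Relative to the eligible genes, the last step was then 0.19 in CPM and 0.16 after TMM scaling.

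**Figure D2:**
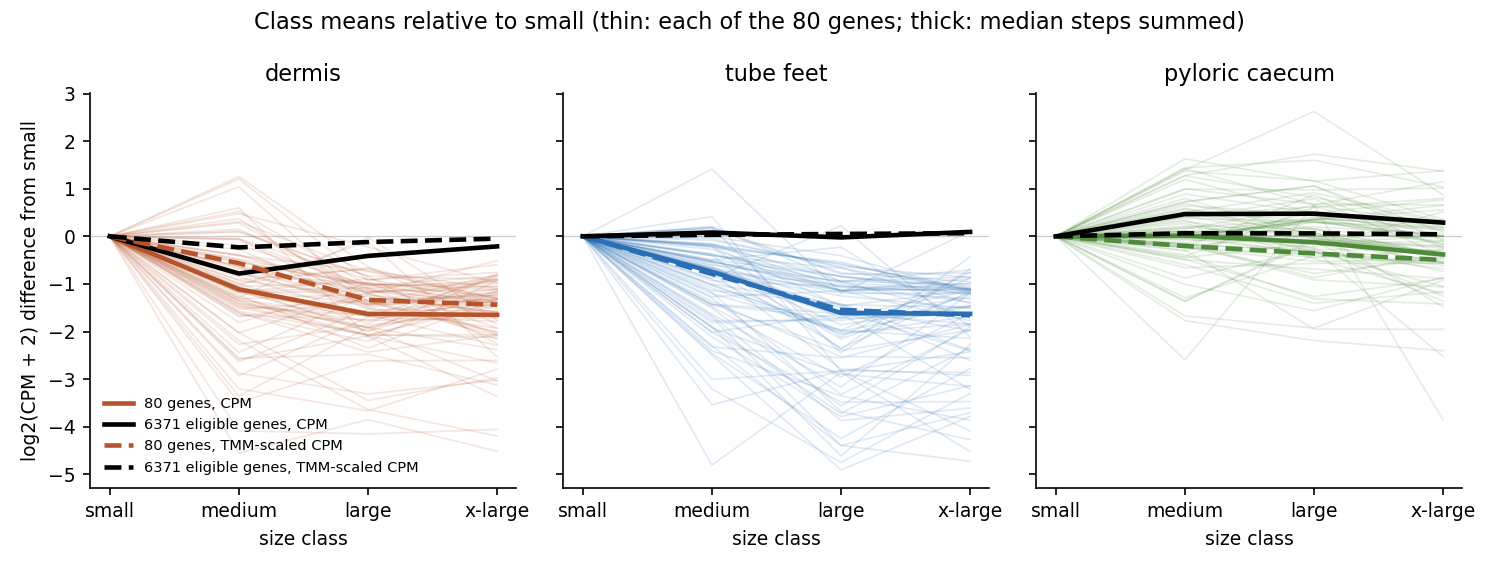
Class means of log2(CPM + 2) relative to the small class for each of the 80 genes (thin lines), with the summed median steps of the 80 genes (thick coloured) and of the 6371 eligible genes (thick black), in CPM (solid) and TMM-scaled CPM (dashed). In dermis the eligible genes step down by 0.78 from small to medium in CPM and by 0.23 after TMM scaling, while the tube feet lines hardly depend on the scaling.

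Individual genes followed the group loosely. The class mean of log2(CPM + 2) was highest in small animals for 68 of the 80 genes in dermis and 73 in tube feet, against 51.9% and 26.6% of the eligible genes. After TMM scaling these counts were 54 and 73, against 33.1% and 27.5%. The means were in strict order from small to x-large for 13 genes in dermis and 33 in tube feet, or 36 in tube feet without the library that stands apart, against 2.73% and 5.70% of the eligible genes. After TMM scaling the counts were 18 and 37, against 3.03% and 6.58%, and the tube feet count was 38 without that library. The x-large mean lay above the large mean for 40 genes in dermis and 39 in tube feet, the latter 36 without the library that stands apart. The selection fixed a downward fit, and these counts describe the form it took.

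Every small library lay above every other library of its tissue for 18 of the 80 genes in dermis and 27 in tube feet. Among the eligible genes this held for 2.5% in dermis and 3.37% in tube feet. Without the x-large library that stands apart, the tube feet count was 30, against 3.99%. The rule used these same values, so nothing is read from the excess.

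The gene with the strongest combined slope was g18733, at -1.29 in dermis and -1.61 in tube feet. In dermis it stood at 3631, 3544 and 4589.5 CPM in small animals and at 6535, 17420 and 1799 CPM in medium ones. The large libraries held 9368, 174, 916, 319.6 and 1243 CPM and the x-large ones 464, 283 and 407 CPM. Medium dermis therefore spanned the small values, 1 large library exceeded them, and the 3 x-large libraries were uniformly low. In tube feet the gene held 366 and 82.8 CPM in small animals, 13.5, 12.4 and 206 CPM in medium, 1.51 to 13.4 CPM in large and 3.12 to 6.83 CPM in x-large animals. It took 0 to 7.97 CPM in pyloric caecum.

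A second dermis-enriched gene, g15064, had a similar course. Its dermis libraries held 557, 635 and 627 CPM in small animals, 1631, 3482 and 532 in medium, 1449, 249.7, 275, 184 and 477 in large and 196, 59.8 and 396 in x-large animals. Its tube feet held 57.0 and 33.7 CPM in small animals, 7.52, 6.21 and 106 in medium, 0 to 6.04 in large and 0 to 1.37 in x-large animals. In both genes the same medium and large animals, M0D055223K and M0D055225M, gave the highest dermis value of their class, and the same medium animal, M0D055224L, gave the highest medium tube feet value.

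Other genes dropped sharply after the small class. For g11513, small dermis held 407, 198 and 417 CPM, whereas all 11 larger dermis libraries lay between 11.5 and 81.9 CPM. Its small tube feet held 82.6 and 95.4 CPM, medium ones 24.1, 29.5 and 11.9 CPM, and large and x-large ones 0 to 25.0 CPM. Neither tissue showed overlap between small and larger animals for this gene. The mean in small over that in x-large animals was 7.45 in dermis and 8.06 in tube feet.

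In dermis, g21200 stood at 536, 566 and 431 CPM in small animals, at 17.2, 29.4 and 14.9 in medium, at 20.5, 11.7, 68.8, 12.3 and 176 in large and at 70.0, 34.5 and 2.21 in x-large animals. Its tube feet declined less steeply, from 101 and 54.7 CPM in small animals to 8.19, 7.80 and 29.2 CPM in x-large ones. The dermis slope was -1.28 and the tube feet slope -0.72. No larger library reached the small ones in either tissue, and the larger classes overlapped. In tube feet the gap was narrow, with 49.9 CPM in large library 2 and 46.2 CPM in medium library 3.

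For g218, small dermis held 714, 242 and 496 CPM, above the 2.57 to 149.8 CPM of the larger dermis libraries. Its tube feet held 251 and 46.3 CPM in small animals and 1.49 to 3.01 CPM in medium ones, but 2 of the 5 large libraries held 175 and 66.2 CPM. These large animals, M0D055227O and M0D055232T, overlapped with the small ones. The gene g681 stood at 39.2, 89.8 and 199 CPM in small dermis and at 1.95 to 23.1 CPM in all larger dermis, with 81.2 and 202 CPM in small tube feet and 0 to 46.6 CPM in larger ones.

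**Figure D3:**
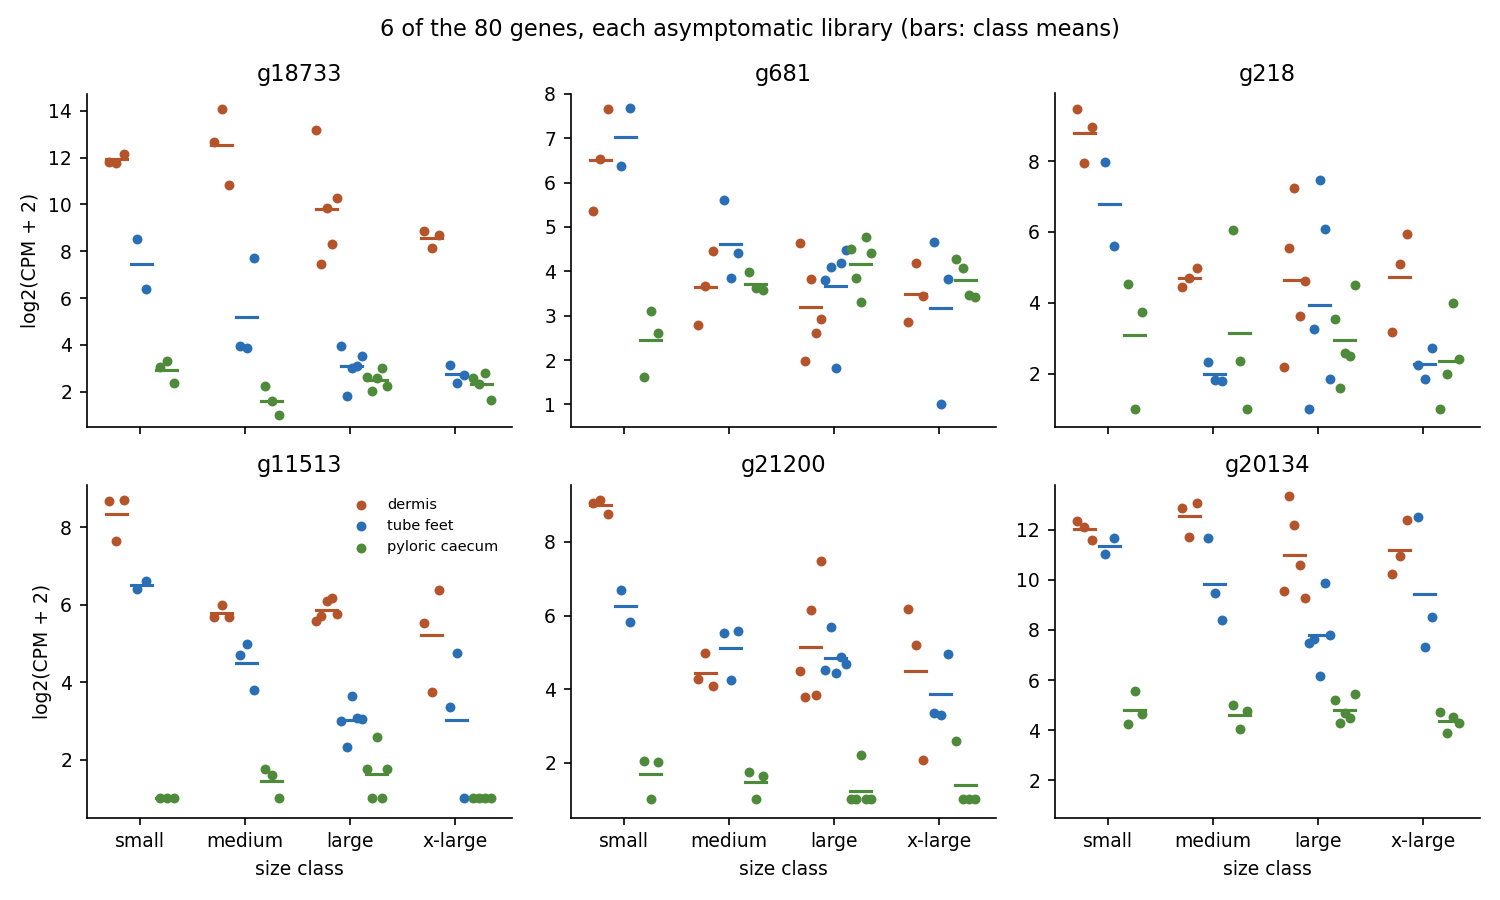
Log2(CPM + 2) of 6 of the 80 genes in each asymptomatic library, by size class, in dermis (brown), tube feet (blue) and pyloric caecum (green). Bars mark class means. For g681, g11513 and g21200, the small dermis and small tube feet libraries lie above all larger ones of the tissue, whereas for g18733 and g20134 medium dermis reaches or passes the small level.

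The 3 members with the most reads were g20134, g18733 and g20981. CPM is not corrected for transcript length, so levels are not compared between genes. For g20134, small dermis held 5250.3, 4465 and 3040.3 CPM, medium 7417, 3319 and 8554, large 747, 10269, 4676, 1549 and 615, and x-large 1190.4, 1964 and 5358. All 4 dermis classes overlapped. In its tube feet, small animals held 2093 and 3247 CPM, medium ones 3232, 705 and 340 CPM and large ones 69.5 to 934 CPM. The x-large library that stands apart held 5843 CPM beside 156 and 369 CPM, so medium and x-large tube feet both reached the small level. For g20981, small dermis held 984, 1713 and 1658 CPM and x-large dermis 348, 143 and 759 CPM, with medium dermis reaching 2578 CPM.

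A single library also set the pattern in some genes. For g7400, the medium tube feet of M0D055224L held 2868 CPM beside 9.02 and 6.21 CPM in the other medium animals, and for g6959 the same library held 5274 CPM beside 165 and 262 CPM. For g6959, small tube feet held 312 and 168 CPM and x-large ones 438, 236 and 146 CPM. This was the only one of the 80 genes whose x-large mean of log2(CPM + 2) was not below the small mean in tube feet, and without the library that stands apart all 80 were lower in x-large than in small tube feet. At the low end, g1401 had no read in x-large dermis, and its small dermis libraries held 3.27, 4.49 and 15.8 CPM, values that rest on 13 reads in all. Its medium dermis held 76.2, 32.1 and 0 CPM, so its highest dermis values lay in medium animals. Small tube feet held 104 and 2.81 CPM of this gene, and medium ones 15.0, 3.11 and 25.3 CPM.

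How much of the small to x-large difference lay between small and medium varied widely between genes. The median share was 74.3% in dermis and 51.7% in tube feet (43.8% without the x-large library that stands apart), and the dermis median was 47.5% after TMM scaling. For g5677 and g5678, which have consecutive IDs, the medium mean was below the x-large mean in both tissues, with shares of 141% in dermis for each and of 125% and 122% in tube feet. For g5677 in tube feet this order rested on the x-large library that stands apart. Without it, the mean log2(CPM + 2) of g5677 was 2.99 in medium and 2.55 in x-large tube feet, a share of 84.1%, while the order of g5678 held at 2.99 and 3.11, a share of 107%. At the other end, g20981 stood higher in medium than in small animals in both tissues, with shares of -7.19% and -29.6% (-39.6% in tube feet without that library). For g9516 the dermis share was -203%, and its medium dermis libraries held 14.7, 120 and 7.46 CPM.

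Of the members, 7 stood in runs of consecutive gene IDs, namely g534 with g535, g5577 to g5579, and g5677 with g5678. The genes just outside the limit, g4792 and g4109, carry the IDs next to the members g4793 and g4110. The sources used here do not say what the numbering follows, and reads may be shared between near-identical copies, so such groups are counted with that reserve.

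Inside a size class, the 80 genes did not vary as a block. The median correlation between pairs of members, over deviations from class means, was 0.0562 in 14 dermis libraries, against 0.316 for pairs of eligible genes. In 13 tube feet libraries it was 0.101 against 0.0291, and in 15 pyloric caecum libraries 0.0931 against 0.112. These pairs share their libraries and depth, and the values are descriptions across genes. They were taken in CPM, so shifts of a whole library enter them, and the eligible mean ran from 3.95 to 5.59 in large dermis alone. After TMM scaling the tube feet values were 0.0601 and 0.00177. No such values were computed for dermis, so its lower value is not read as less coordination. The members had a median pooled within-class SD of 0.985 (log2 scale) in dermis and 0.775 in tube feet, against 0.766 and 0.453 for the eligible genes. The rule took extreme slopes in these same libraries, which favours genes of large scatter, so nothing is read from this excess.

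Colour and size class overlap, so orange and brown animals were set side by side within a class. The medium orange animal had a mean over the 80 genes of 5.39 in dermis and 5.30 in tube feet, between or beside the brown animals at 5.46 and 5.25 in dermis and 4.77 and 5.43 in tube feet. In x-large dermis the orange animal held 4.84 and the brown ones 4.74 and 4.87. In x-large tube feet the orange animals held 4.78 and 3.82 and the brown one 4.43. With colour as a term of the fit, the median dermis slope was -0.40 in place of -0.48. The small dermis libraries came from batches 1, 2 and 4. With batch as a term the median slopes were -0.60 in dermis and -0.62 in tube feet, and within single batches they ran from -0.94 to -0.13 in dermis and from -0.87 to 0.22 in tube feet, where batch 5 alone, with 1 large and 1 x-large animal in each tissue, gave the positive value.

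The pyloric caecum libraries took no part in the selection, but they came from the same asymptomatic animals. In this tissue the genes showed a weak tilt in the same direction, with few changes in single genes. Levels were low, with 36 of the 80 genes at a mean of 10 CPM or more and 2 genes (g9516 and g2655) without a read in the 15 asymptomatic libraries. The library mean over the 80 genes was 3.08, 3.48 and 3.65 in small, 3.32, 3.39 and 3.73 in medium, 3.23 to 3.77 in large and 2.89 to 3.29 in x-large pyloric caecum, so the small and large classes overlapped with every other class, while all x-large libraries lay below all medium ones. Over the eligible genes this mean was lower in small pyloric caecum (3.47 to 3.94) than in medium (4.06 to 4.40), without overlap. Relative to the eligible genes, the members' median steps were 0.45, 0.15 and 0.07 in CPM and 0.27, 0.15 and 0.12 after TMM scaling. The class mean was highest in small animals for 25 of the 80 genes, against 8.93% of the eligible genes. After TMM scaling it was so for 41, against 27.1%. The slope was negative for 48 of 80 genes, with a median of -0.06, whereas 33.0% of the eligible genes had a negative slope and their median was 0.08. After TMM scaling the medians were -0.12 and 0.01. The 80 genes chosen by the mirrored rule, with the highest slopes in dermis and tube feet, had a positive pyloric caecum slope in 61 cases (76.3%), against 67.0% of the eligible genes, and a median of 0.15.

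The trend over size class was tested in pyloric caecum by an edgeR quasi-likelihood fit over all 13220 genes that averaged 1 CPM or more there. Of the 80 genes, 66 passed this filter, and 51 of these had a negative and 15 a positive fitted trend. Over all genes tested, 46.8% had a negative trend. The median of the 66 was -0.23 per class, against 0.02 over all genes tested. With scaling by total gene counts only, 42 were negative and 24 positive, against 33.6% negative over all genes. Of the 66, 1 gene was called lower with size at a false discovery rate under 0.01 and none higher. Over all genes tested, 0.318% were called lower and 0.31% higher, so calls were rare throughout. At an unadjusted p under 0.05, 11 members were lower (5.22% of all genes tested) and 1 was higher (6.24%), and DESeq2 called 4 lower and 0 higher (0.688% and 0.87%).

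The gene called was g21280, which fell with size by 0.97 per class on the log2 scale (SE 0.169, edgeR adjusted p = 0.0024, n = 15). Its pyloric caecum libraries held 311, 246 and 50.8 CPM in small animals and 38.4, 78.3 and 29.8 in medium ones. Large animals held 25.0, 39.4, 58.1, 13.3 and 49.6 CPM and x-large ones 17.5, 30.9, 41.2 and 28.4 CPM. The drop lay between 2 of the small animals and all others, and the third small animal lay within the range of the medium class. The edgeR call was lost without small library 1 (adjusted p = 0.0273) or without small library 2 (adjusted p = 0.0176), and it was also lost with batch (adjusted p = 0.315) or colour (adjusted p = 0.0759) as a covariate. Small animal M0D055219G gave the highest value of g21280 in all 3 tissues, with 175 CPM in dermis, 809 CPM in tube feet and 311 CPM in pyloric caecum.

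The direct contrasts of size classes in pyloric caecum gave the same gene. In small against x-large animals, 1 member was called higher and none lower, where 0.144% and 0.151% of all genes were called, and at an unadjusted p under 0.05 the counts were 11 higher and 2 lower, against 4.9% and 6.17% of all genes. DESeq2 called 4 higher and 0 lower, against 0.598% and 0.802%. In small animals against the mean of the other classes, 1 was called higher and none lower, where 0.227% and 0.0303% were called, with 15 higher and 3 lower at an unadjusted p under 0.05 (4.94% and 5.12% of all genes) and 3 and 0 by DESeq2 (0.545% and 0.408%). For g21280 the log2 differences were 2.96 (SE 0.534, edgeR adjusted p = 0.0061) and 2.77 (SE 0.387, adjusted p = 5.0e-04). Batch as a covariate ended both calls (edgeR adjusted p = 0.226 and 0.0277). The call against x-large was also lost with animals not feeding only (edgeR adjusted p = 0.0121, log2 difference 2.86) and with scaling by total gene counts only (edgeR adjusted p = 0.0117). Leaving out small library 1 ended both calls (adjusted p = 0.0547 and 0.0194), and leaving out small library 2 or any x-large library ended that against x-large (adjusted p = 0.0145 to 0.0296). For no member did every small pyloric caecum library lie above every other, which held for 0.22% of the eligible genes.

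Short of the threshold were g5678, with a trend of -0.61 per class (SE 0.132, edgeR adjusted p = 0.0137), and its ID neighbour g5677, with -0.79 (SE 0.174, adjusted p = 0.0162). In g5678, small pyloric caecum held 258, 242 and 314 CPM, medium 132, 218.3 and 302, large 63.4 to 131 and x-large 67.2 to 134 CPM. In g5677, small animals held 744, 325 and 737 CPM, medium 260.5, 646 and 583, large 98.5 to 299 and x-large 55.1 to 295 CPM. In both genes small and medium animals were mostly above large and x-large ones. In dermis, by contrast, the medium mean of log2(CPM + 2) lay below the x-large mean in both genes. In tube feet it did so for g5678, and for g5677 only with the library that stands apart. DESeq2 and the fit without x-large library 3 called both lower.

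Some genes ran the other way in pyloric caecum without passing the test. For g681, small animals held 1.05, 6.64 and 4.15 CPM and all larger ones 7.92 to 25.4 CPM, with a trend of 0.41 per class (SE 0.196, edgeR adjusted p = 0.42). For g7400 the trend was 0.37 (SE 0.338, adjusted p = 0.767) and for g4065 0.29 (SE 0.221, adjusted p = 0.711). These were the largest positive trends among members with a mean of at least 10 CPM there, while all 3 had strongly negative slopes in tube feet, between -1.39 and -1.15.

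**Figure D4:**
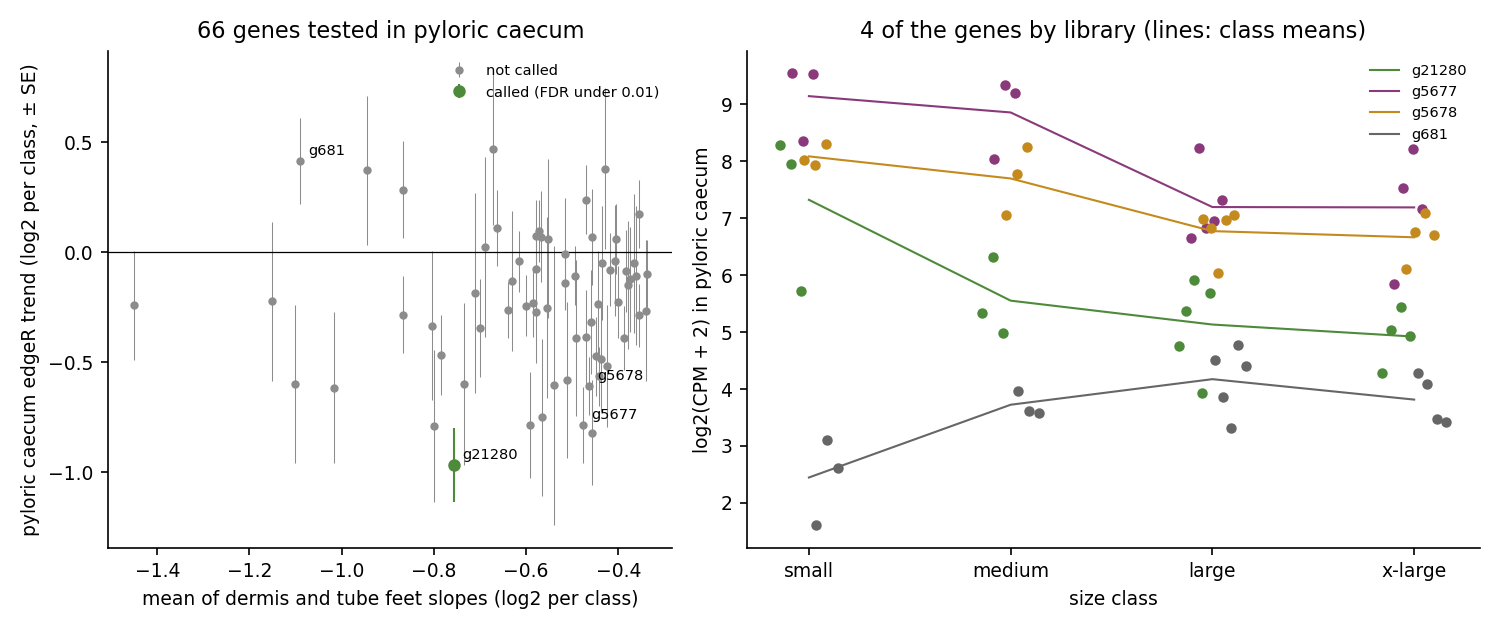
Left, fitted pyloric caecum trend per size class (edgeR, log2 ± SE) of the 66 genes tested there against the mean of their dermis and tube feet slopes. Right, log2(CPM + 2) of 4 genes in each pyloric caecum library by size class, with lines through class means. Most trends lie below 0, g21280 at -0.97 is the gene called, and g681 lies above 0 at 0.41.

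The symptomatic animals were not used in the selection, and 4 of their 6 libraries lay outside the asymptomatic range of their own size class in mean level, 3 of them below it. The medium symptomatic animal had a mean of 5.12 over the 80 genes in dermis and 5.17 in tube feet, and the large one 4.86 and 4.49. The medium tube feet value was inside the asymptomatic range of its class, the large tube feet value was above its range of 4.06 to 4.41, and the medium dermis value was below its range of 5.25 to 5.46. The large dermis value was inside its range of 4.50 to 5.28. In pyloric caecum the means were 2.97 in the medium and 3.06 in the large symptomatic animal, both below their ranges of 3.32 to 3.73 and 3.23 to 3.77. Over the eligible genes, the medium symptomatic animal was also below its class in pyloric caecum, at 3.77 against 4.06 to 4.40. For these genes it was above its class in dermis (4.87 against 4.43 to 4.70) and below it in tube feet (5.47 against 5.49 to 5.55). The large symptomatic animal lay inside its class range for the eligible genes in every tissue. Gene by gene, in medium dermis 29 of the 80 genes (36.3%) lay below and 24 (30.0%) above the range of the 3 asymptomatic libraries. The shares of the eligible genes were 22.8% and 38.2%. In large dermis 13 of the 80 genes (16.3%) lay below the range of their class, against 15.99% of the eligible genes. In medium tube feet 21 (26.3%) lay below it, against 33.1%, and in large tube feet 8 of the 80 did, against 14.5%. Among dermis and tube feet, a clear excess of members below the range was thus seen in medium dermis alone. In tube feet, 55 of the 80 genes (68.8%) were higher in the medium than in the large symptomatic animal, against 48.2% of the eligible genes, with a median difference of 0.61 against -0.03. In dermis, 47 (58.8%) were higher, against 44.7%, with a median difference of 0.21 against -0.13. These are 2 animals that also differ in site, colour and batch, which cannot be told apart from size.

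Between symptomatic and asymptomatic dermis, 7 of the 80 genes were called, 4 being higher and 3 lower in wasting animals. All 80 were among the 14257 genes tested with edgeR, of which 1.81% were called higher and 0.463% lower. The genes tested reach down to a mean of 1 CPM, below the members. With a stricter filter (filterByExpr of edgeR), 4 of 78 members were higher and 3 lower, against 226 and 82 of 6779 genes. At an unadjusted edgeR p under 0.05, 8 members were higher and 21 lower, against 7.63% and 8.33% of all genes tested. The median log2 difference of the members was -0.45, against -0.18 over all genes tested. The asymptomatic side of this contrast took part in the selection, and it includes small animals whereas no symptomatic animal was small. Members were selected for higher values in smaller animals, which can raise the asymptomatic mean. The lower median and the members called lower are therefore not read as an effect of wasting. With size class as a covariate, 4 members were called higher and 5 lower, against 274 and 83 of all 14257 genes. With batch as a covariate, 2 members were called higher and 0 lower, so most of the 7 calls were lost. Calls also dropped over all genes with batch, from 258 higher and 66 lower to 155 and 41. With McClures Beach only, which leaves 1 symptomatic animal, the median log2 difference of the members was -1.34, against -0.44 over all genes tested.

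The strongest was g5937, at 683 CPM in the medium and 483 CPM in the large symptomatic dermis, against 0 to 21.2 CPM in all 14 asymptomatic libraries (log2 difference 5.79, SE 0.408, edgeR adjusted p = 1.8e-11). In the same animals its tube feet held 15.1 and 11.5 CPM, within the asymptomatic range of 3.13 to 42.1 CPM. Their pyloric caeca held 49.8 and 49.2 CPM, above the asymptomatic range of 0 to 26.7 CPM (log2 difference 2.29, SE 0.578, edgeR adjusted p = 0.0162). Of the 7 dermis calls, this was the only one kept under all 27 alternatives, including each symptomatic library left out.

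Also higher in symptomatic dermis were g9516, g15561 and g14622. For g9516 the symptomatic libraries held 137 and 259.9 CPM, beside 0 to 38.5 CPM in 13 asymptomatic libraries and 120 CPM in 1 medium one (log2 difference 3.47, SE 0.732, edgeR adjusted p = 0.0032). For g15561 they held 477 and 522 CPM against 28.2 to 246 CPM (log2 difference 1.94, SE 0.440, edgeR adjusted p = 0.0061). For g14622 they held 81.8 and 93.1 CPM against 9.75 to 60.5 CPM (log2 difference 1.83, SE 0.421, edgeR adjusted p = 0.0070). In these 3 genes both symptomatic animals lay above every asymptomatic library.

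Lower in symptomatic dermis were g19734, g12661 and g5065. For g19734 neither symptomatic library held a read, while all 14 asymptomatic ones held 2.57 to 42.5 CPM (edgeR adjusted p = 0.0058). For g12661 they held 7.12 and 0 CPM against 29.3 to 230 CPM (edgeR adjusted p = 0.0021), and for g5065 7.12 and 6.50 CPM against 13.7 to 89.9 CPM (log2 difference -2.89, SE 0.678, edgeR adjusted p = 0.0084). Again no symptomatic library overlapped with the asymptomatic ones. Leaving out either symptomatic library ended every one of these dermis calls but that of g5937 (edgeR adjusted p = 0.0215 to 0.206), with 1 exception, g12661 without the medium animal. The call of g14622 was also lost without medium library 3, large library 2 or 3, or x-large library 2 or 3 (edgeR adjusted p = 0.0101 to 0.0113). Batch as a covariate ended the calls of g15561, g14622, g19734, g12661 and g5065 (edgeR adjusted p = 0.0113 to 0.0686), and McClures Beach only ended those of g9516, g15561, g14622, g19734 and g5065 (edgeR adjusted p = 0.0261 to 0.129). The call of g5065 was also lost without any 1 of the small libraries, medium library 1, large library 3 or x-large library 2 (edgeR adjusted p = 0.0101 to 0.0118), and with RLE scaling (edgeR adjusted p = 0.0103). Scaling by total gene counts only ended the calls of g5065 and g14622 (edgeR adjusted p = 0.0232 and 0.0503). Animals not feeding only ended that of g14622 (edgeR adjusted p = 0.0113), and a robust fit ended that of g9516 (edgeR adjusted p = 0.0656).

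**Figure D5:**
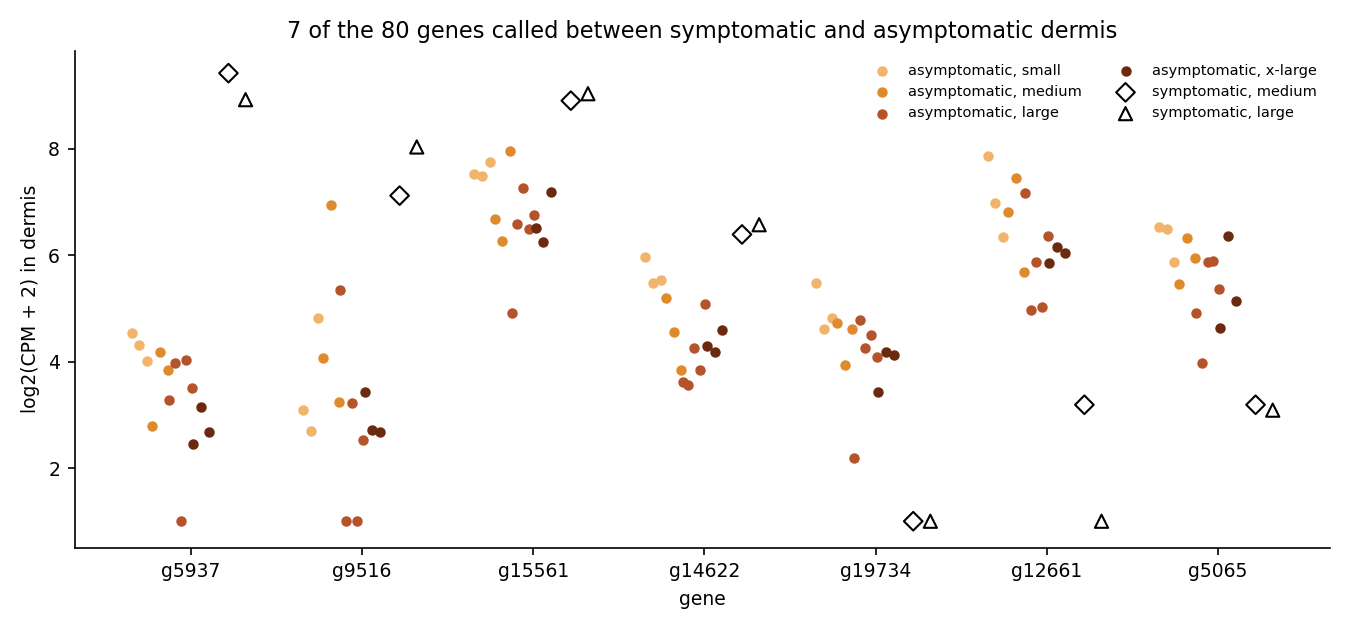
Log2(CPM + 2) in dermis of the 7 genes called between symptomatic and asymptomatic animals. Filled circles are asymptomatic libraries coloured by size class from small (light) to x-large (dark), and open symbols are the symptomatic medium (diamond) and large (triangle) animal. Both open symbols lie above all circles in g5937, g9516, g15561 and g14622 and below all circles in g19734, g12661 and g5065.

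In tube feet and pyloric caecum no member was called between symptomatic and asymptomatic animals. In tube feet all 80 were tested with edgeR among 15176 genes, of which 0.105% were called higher and 0.00659% lower. There, 4 members were higher and 4 lower at an unadjusted p under 0.05, near the 4.92% and 3.8% of all genes, and DESeq2 called 0. In pyloric caecum 64 of the 80 passed the filter among 13205 genes, of which 2.24% were called higher and 0.507% lower. There, 5 members were higher and 9 lower at an unadjusted p under 0.05, against 10.2% and 9.88% of all genes, and DESeq2 called 0 higher and 1 lower, against 2.59% and 1.58%. With 2 symptomatic animals per tissue, a missing call does not show that a gene was the same in both groups.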

How the data were processed

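RNA from dermis, tube feet and pyloric caecum biopsies was sequenced. The deposited files hold raw read counts, 1 whole number for each of 21777 genes plus 5 summary lines. Per the submitters' processing notes, the authors used Trim Galore 0.4.4, TopHat2 2.0.13, SAMtools 0.1.19 and edgeR. For the counting program, strand setting, genome build and annotation, the sources used here give nothing. Reads that met no gene made up 81.2% to 88.4% of the counted lines in asymptomatic dermis, 78.3% to 81.1% in tube feet and 71.0% to 78.8% in pyloric caecum, and stayed out of all totals.

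Tests were edgeR 4.0.16 quasi-likelihood F-tests in R 4.3.3 (TMM scaling, mean of at least 1 CPM, Benjamini-Hochberg false discovery rate under 0.01 over all genes tested). The filter and the rate are those of the study's design text. DESeq2 1.42.0 was an alternative. Each standard error is the log2 difference over the square root of F. The edgeR fits were tried on simulated counts, where the direction of calls was not checked. Replicates are separate animals, 1 library per tissue. The members, lists and tests were chosen with earlier results of these data known. Genes were named by rule: the 12 lowest slopes, those beside the limit, the 3 with most reads, called genes or the 3 largest trends, and the extremes of the share between small and medium. The genes g2655, g534, g535, g5577, g5579 and g4110 were named after their values were seen. Other alternatives were scalings, filters, pseudocounts, covariates, sites, feeding and leaving out each library. Leaving out the x-large tube feet library that stands apart, in tube feet summaries, was chosen after seeing the data, and TMM factors were kept from all tube feet libraries there.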

Additional observations from a re-analysis of the deposited data

Results flagged for a closer look

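Among 120 groups of 4 or 5 library values of the named genes, 12 held a library far from the rest of its group. The cut-off flags about 1 in 20 groups only where values are independent and normally distributed. These groups share libraries, and in some only 1 library had reads, which is then always flagged. The count is therefore not compared with that rate. All values are CPM, and none was tested further.

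In large dermis, animal M0D055225M stood lowest in g5677 (2.57, others 26.6 to 49.1) and in g19734 (2.57, others 15.0 to 25.4). Animal M0D055227O had no read of g5937 (0, others 7.70 to 14.3), and M0D055232T stood highest in g4792, a gene just outside the limit (28.7, others 3.74 to 5.13). In large tube feet, M0D055227O stood lowest in g681 (1.51, others 11.9 to 20.3) and M0D055232T highest in g5677 (11.3, others 3.02 to 4.53).

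In large pyloric caecum, M0D055227O had no read of g4793 (0, others 13.8 to 19.4), was lowest in g5678 (63.4, others 111 to 131) and was the only library with reads of g21200 (2.64). M0D055232T was the only one with reads of g1401 (3.63). In x-large pyloric caecum, M0D055228P was the only library with reads of g4793 (2.69) and of g21200 (4.03). Values under about 4 CPM stand for 1 to 3 reads.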

How the results depend on the processing

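No paired analysis was possible because each tested comparison holds 1 library per animal. In the test of the pyloric caecum trend, 1 member was called lower as reported, 0 with batch or with colour as a covariate, 4 by DESeq2 or at a false discovery rate of 0.05, 3 without the low-count filter, and 0 to 3 when single libraries were left out (0 without small library 1 or 2, 2 without large library 3, 3 without x-large library 3). For small against x-large, the 1 member called higher became 0 with batch as a covariate, with animals not feeding only or with total counts only, 2 at 0.05, 3 with small and x-large libraries only, 4 by DESeq2 or without the filter, and 0 to 1 with single libraries left out. For small against the other classes it became 0 with batch, 3 by DESeq2, at 0.05 or without the filter, and 0 to 1 with libraries left out. Over all genes, calls in these directions at 0.05 were 104 for the trend, 60 against x-large and 86 against the other classes. They were 63, 69 and 94 without the filter, and 1, 9 and 19 with batch. Tested were 13220 genes, or 17583 without the filter.

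In dermis, the 4 members called higher and 3 called lower in symptomatic animals became 2 and 0 with batch as a covariate. Over all 14257 genes, 258 higher and 66 lower became 155 and 41 with batch, and 83 were lower with size class. DESeq2 called 0.905% of all genes lower, and 181 were lower at 0.05. Of the members, 7 were called lower by DESeq2 or at 0.05 and 5 with size class as a covariate. With single libraries left out the counts ran from 1 to 4 and from 0 to 4, the lowest without a symptomatic library. The lone symptomatic library is then assumed to vary like the other group. In pyloric caecum, 1 was called higher at 0.05 (589 of all 13205 genes) and 1 lower by DESeq2 (1.58%). Without large library 4 or medium library 2, 1 was called higher (346 and 278 of all genes).

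Of the 80 genes, the rule kept 44 with a minimum of 5 CPM, 46 with 20 CPM, 27 with none, 50 with animals not feeding only, 53 with batch as a term, 41 by Spearman correlation and 50 to 75 with single animals left out, 50 without M0D055228P and 52 without either of 2 small animals. Median slopes in dermis were -0.60 with batch and -0.40 with colour as a term, and -0.80, -0.93, -0.27, -0.94 and -0.13 in batches 1 to 5 alone. In tube feet they were -0.44 with a pseudocount of 5 CPM, -0.62 with batch as a term, -0.67, -0.83, -0.35 and -0.87 in batches 1 to 4, and reversed at 0.22 in batch 5, and -0.63 to -0.46 with libraries left out. In pyloric caecum they were -0.12 after TMM scaling, 0 in batch 3 and -0.58 in batch 5. A batch alone holds 2 to 5 libraries of a tissue. The share between small and medium was 47.5% in dermis after TMM scaling and 35.3% to 59.4% in tube feet with libraries left out, lowest without medium library 2. The causes were not tested. Depth limits genes of few reads.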

Other observations

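The pair of tube feet libraries from Friday Harbor came from 1 animal with no size label and entered no comparison. Their mean log2(CPM + 2) over the 80 genes was 5.17 in the library labelled asymptomatic and 4.82 in that labelled symptomatic, inside the range of the medium Point Reyes tube feet (4.77 to 5.43). In the medium symptomatic pyloric caecum, 33 of the 80 genes (41.3%) lay below the range of the 3 asymptomatic medium libraries, against 47.0% of the eligible genes, and in the large one 19 (23.8%) lay below that of the 5 large ones, against 21.3%.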
